A study of Saccharomyces cerevisiae with 4 samples.

Results

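Budding yeast adjusts its zinc supply through Zap1, a transcription factor that is active when cellular zinc is low. Zap1 binds elements in the promoters of its targets, its own gene among them, and raises uptake at the plasma membrane and release of zinc from the vacuole. The 10 genes described here are ZAP1 itself, the plasma membrane transporters ZRT1 and ZRT2, the vacuolar transporters ZRT3 and ZRC1, the alcohol dehydrogenase gene ADH4, the cell surface protein gene ZPS1, the membrane protein genes IZH1 and IZH2, and the unnamed locus YOR387C. The first 9 were listed as genes of the Zap1 regulon, with their earlier results in these arrays known. YOR387C was chosen on its measured signal, because it was high on 1 wild-type array, so its values are a description and no test of it is given. Each of the 10 had 1 probe set among the 5449 genes measured, none marked as cross-hybridising.

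The series compared log-phase cultures of dis3-E729K cells, 2 arrays, with wild-type cells, 2 arrays. The allele is a missense change in DIS3, the gene of the nuclease subunit of the RNA exosome, the complex that trims and degrades RNA from the 3' end. All 4 cultures were grown at 30 °C in drop-out medium, and per the labels both genotypes were in the BY4741 background, with URA3 inserted next to DIS3 as a marker. Samples of a genotype are labelled biological replicates; nothing says what the cultures of a genotype share, so p-values measure only the spread between these arrays. The zinc content of the medium is not given in the sources used here. Values are log2 intensities of 1-colour arrays (RMA), and precision is limited by having 2 arrays a group.

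The arrays differed in ways that their labels do not give. All 7 measured genes specific to a cells, the mating type of BY4741, were higher on both arrays numbered replicate 1 than on both numbered replicate 2, with medians of 11.36 and 11.06 on dis3-E729K and wild type replicate 1 and of 5.61 and 6.64 on dis3-E729K and wild type replicate 2. All 5 measured alpha-cell genes lay the other way, with medians of 5.76 and 5.66 on the replicate 1 arrays and 11.81 and 12.92 on the replicate 2 arrays. Wild type replicate 2 stood apart in further genes, with 29 of the 5449 at least 1 log2 unit above the other 3 arrays. The largest such excess was in MET17, the sulfhydrylase gene that BY4741 lacks. MET17 read 9.55 there, against 3.22 to 3.47 on the other 3 arrays. Of the other auxotrophic marker genes listed, HIS3 read 10.49 to 11.57 over the 4 arrays, LYS2 11.26 to 12.07, URA3 10.89 to 11.38 and LEU2 4.26 to 4.58. Since a genotype was represented by 1 array of each mating type pattern, differences are given below both over all 4 arrays and between arrays of the same replicate number. Results that rest on wild type replicate 2 are given with and without it.

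ZAP1 and IZH1 were the members lower in dis3-E729K by the test. ADH4 and ZPS1 were set apart by a single wild-type array, replicate 2, which was also the highest array for ZAP1 and IZH1. In limma's test over all 5449 genes, 2 of the 9 tested members fell and 0 rose at an adjusted p under 0.05, where 8.15% of all genes fell and 7.71% rose. Before adjustment, at a p under 0.05, the same 2 were lower and 0 higher, against 22.6% and 18.1% of all genes. Counting samples, both dis3-E729K arrays lay below both wild-type arrays for 4 of the 9 members other than YOR387C, namely ZAP1, ZRT3, ZRC1 and IZH1, against 41.8% of all genes, and above both for 0 of 9, against 32.3%. The share of members lower before adjustment and the share lying below are thus near those of all genes. The median log2 difference of the 9 was -0.44, beside -0.07 over all genes tested. Without wild type replicate 2 it was -0.02, beside -0.06 over all genes.

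**Figure D1:**
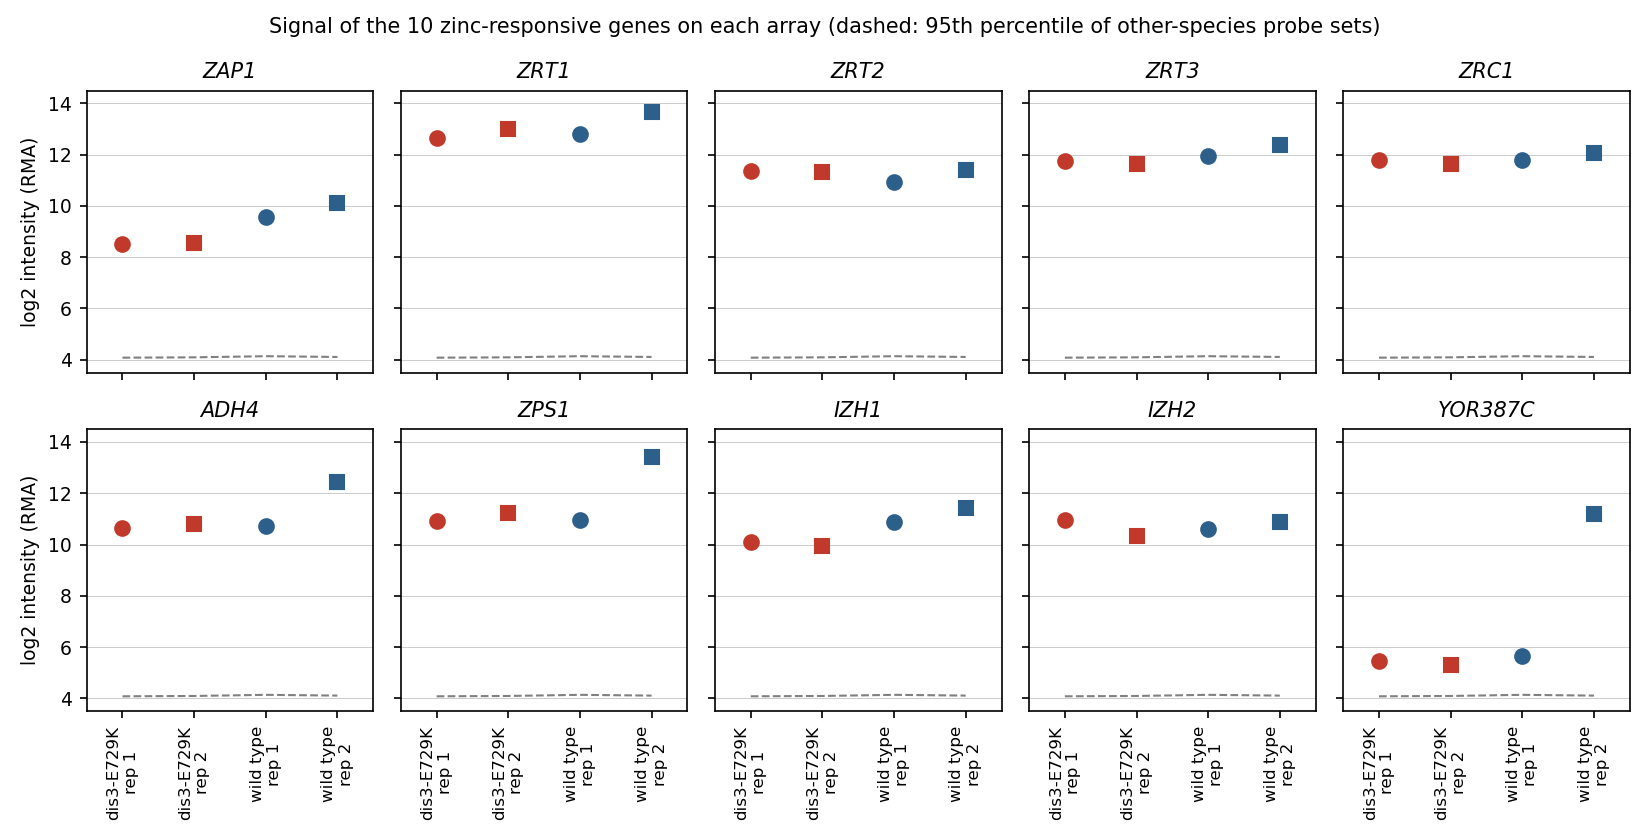
Log2 intensity of each of the 10 genes (1 panel a gene) on the 2 dis3-E729K arrays (red) and the 2 wild-type arrays (blue), circles for replicate 1 and squares for replicate 2; the dashed line is the 95th percentile of probe sets for another yeast species, near 4.1. ZPS1, ADH4 and YOR387C are high on wild type replicate 2 alone, while ZAP1 and IZH1 are low on both dis3-E729K arrays.

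ZAP1 encodes the zinc-sensing activator and is itself a Zap1 target. Its signal was 8.50 and 8.55 on dis3-E729K replicates 1 and 2, against 9.58 and 10.11 on wild type replicates 1 and 2. The groups did not overlap, and the spread between the dis3-E729K arrays was small beside the gap to wild type. The level averaged 8.52 ± 0.04 in dis3-E729K and 9.85 ± 0.37 in wild type (log2, SD, n = 2 each), a 2.50-fold difference. The log2 difference was -1.32 ± 0.22 (SE), with a 95% interval of -1.91 to -0.73 and an adjusted p of 0.0393 in limma's test. Between arrays of the same number it was -1.08 for replicate 1 and -1.56 for replicate 2. Compared with wild type replicate 1 alone, leaving out wild type replicate 2, the difference was -1.06. It was -1.30 without dis3-E729K replicate 1 and -1.35 without dis3-E729K replicate 2. The direction was kept in each of these fits, but the call was lost. Such fits leave 1 array in a group and called fewer genes of any kind, so a lost call there is no separate evidence on ZAP1. Since RNA came from whole cultures, less ZAP1 RNA per cell and fewer cells holding it cannot be told apart.

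ZRT1 and ZRT2 encode the zinc transporters of the plasma membrane, ZRT1 the one of high affinity and ZRT2 the one of low affinity. ZRT1 read 12.64 and 13.00 on dis3-E729K replicates 1 and 2, against 12.79 and 13.66 on wild type replicates 1 and 2. The groups overlapped, and wild type replicate 2 was the highest array. The log2 difference of ZRT1 was -0.40 ± 0.34 (SE; 95% interval -1.34 to 0.54, adjusted p = 0.422). Without wild type replicate 2 it was 0.03. ZRT2 read 11.38 and 11.31 on the dis3-E729K arrays, against 10.92 and 11.38 on the wild-type arrays, where wild type replicate 1 was the lowest of the 4. Its log2 difference was 0.19 ± 0.20 (95% interval -0.35 to 0.74, adjusted p = 0.498), with 0.46 and -0.07 between arrays of the same number. Neither transporter gene passed the test.

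ZRT3 and ZRC1 act at the vacuole, the store of zinc in yeast: Zrt3 releases zinc to the cytosol and Zrc1 carries it in. ZRT3 read 11.76 and 11.64 on dis3-E729K replicates 1 and 2, against 11.93 and 12.36 on wild type replicates 1 and 2. ZRC1 read 11.78 and 11.64 in dis3-E729K, against 11.79 and 12.05 in wild type. For both genes each dis3-E729K array lay below each wild-type array, by a narrow margin to wild type replicate 1. The log2 difference was -0.44 ± 0.19 (SE) for ZRT3 (95% interval -0.97 to 0.08, adjusted p = 0.164) and -0.21 ± 0.15 for ZRC1 (95% interval -0.63 to 0.20, adjusted p = 0.340). Against wild type replicate 1 alone the differences were -0.23 and -0.09. Neither gene passed.

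IZH1 and IZH2 encode related membrane proteins of the progestin and adipoQ receptor family whose expression responds to zinc. IZH1 read 10.10 and 9.96 on dis3-E729K replicates 1 and 2, against 10.86 and 11.41 on wild type replicates 1 and 2. Both dis3-E729K arrays lay below both wild-type arrays. IZH1 fell by 1.11 on the log2 scale, with an SE of 0.23, a 95% interval of -1.73 to -0.49 and an adjusted p of 0.0476, a 2.16-fold difference. The replicate 1 arrays differed by -0.77 and the replicate 2 arrays by -1.46. In limma's test the call was lost with the replicate number as a block (adjusted p = 0.0663) and under quantile normalization over the genes tested (adjusted p = 0.0515). The difference was -0.84 without wild type replicate 2, -1.18 without dis3-E729K replicate 1 and -1.04 without dis3-E729K replicate 2. The call was lost there too, in fits that leave 1 array in a group and called fewer genes of any kind. IZH2 did not pass: it read 10.97 and 10.35 in dis3-E729K, against 10.59 and 10.88 in wild type. Its wild-type arrays lay between the dis3-E729K arrays, and the log2 difference was -0.07 ± 0.26 (95% interval -0.80 to 0.65, adjusted p = 0.851).

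**Figure D2:**
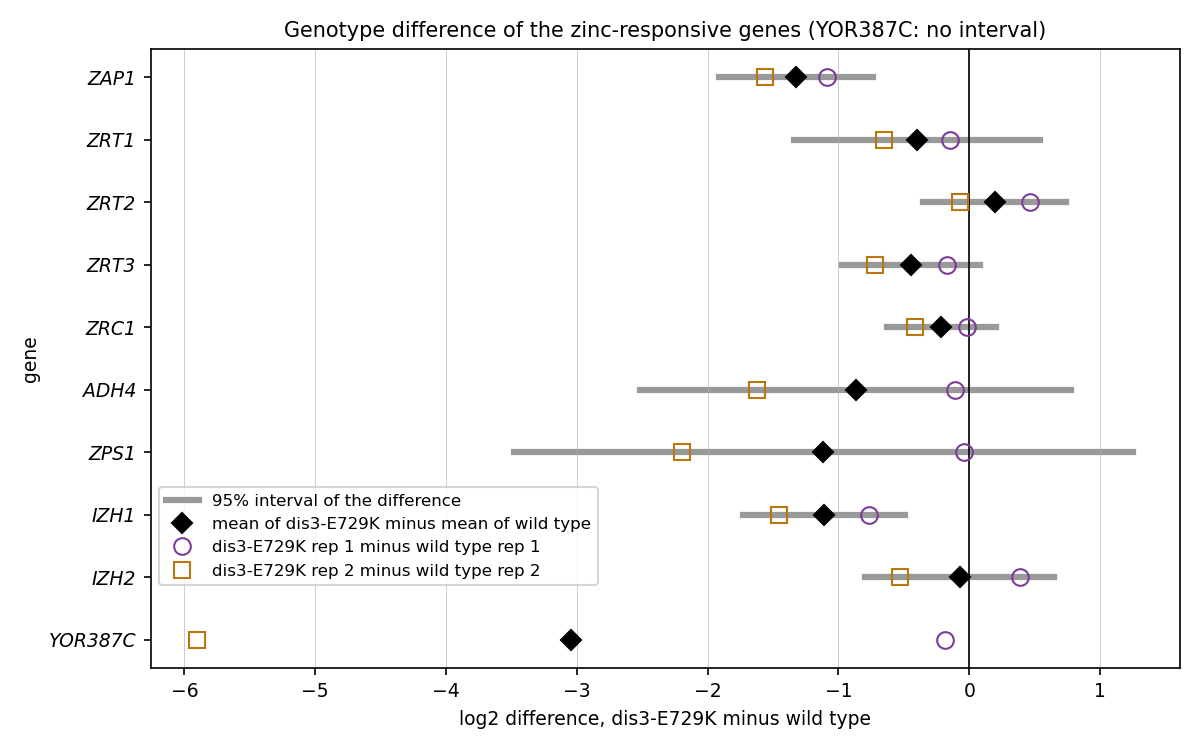
Log2 difference, dis3-E729K minus wild type, of the 10 genes: diamonds are the difference of group means (n = 2 each), grey bars its 95% interval from limma (none for YOR387C), and open circles and squares the differences between replicate 1 and between replicate 2 arrays. Only the bars of ZAP1 and IZH1 stay below 0, and the replicate 2 difference is the lower of the pair for every gene.

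ADH4 and ZPS1 had a pattern of another kind. ADH4 encodes an alcohol dehydrogenase that is induced when zinc is scarce, and ZPS1 a cell surface protein induced under the same condition. ADH4 read 10.63 and 10.82 on dis3-E729K replicates 1 and 2, against 10.74 and 12.44 on wild type replicates 1 and 2. ZPS1 read 10.91 and 11.22 in dis3-E729K, against 10.95 and 13.41 in wild type. For both genes wild type replicate 1 lay with the dis3-E729K arrays and wild type replicate 2 far above all 3. The difference of wild type replicate 2 from wild type replicate 1 was 1.70 log2 units for ADH4, or 3.25-fold, and 2.47 for ZPS1, or 5.53-fold. Between the dis3-E729K arrays, replicate 2 minus replicate 1, the same difference was 0.19 and 0.31. The alpha-cell pattern was common to both replicate 2 arrays, while the high ADH4 and ZPS1 signal was on the wild-type one alone. With 1 array for each genotype and mating type pattern, the part of mating type in that signal was not tested.

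The genotype differences of these genes depended on whether that array was counted. Over all 4 arrays the log2 difference was -0.87 ± 0.60 (SE) for ADH4 (95% interval -2.51 to 0.78, adjusted p = 0.331) and -1.12 ± 0.87 for ZPS1 (95% interval -3.48 to 1.25, adjusted p = 0.378), and neither passed. Between the replicate 1 arrays it was -0.11 for ADH4 and -0.04 for ZPS1, and between the replicate 2 arrays -1.62 and -2.19. Without wild type replicate 2 the values were -0.02 and 0.12. With wild type replicate 2 as the sole wild-type array they were -1.72 (adjusted p = 0.0399) for ADH4 and -2.35 (adjusted p = 0.0335) for ZPS1. In that fit the spread comes from the dis3-E729K arrays alone and the lone wild-type array is assumed to vary like them, so these values restate its height and are no separate evidence. It called 4 of 9 members lower, against 1.56% of all genes, and the fit without wild type replicate 2 called 0 of 9, against 0.0367%. Before adjustment, at a p under 0.05, limma's test had 6 of 9 members lower without wild type replicate 1, against 15.5% of all genes, and 2 of 9 without wild type replicate 2, against 12%, with 0 of 9 higher in either fit.

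YOR387C, which encodes an uncharacterised protein, showed the pattern for which it was chosen most sharply. It read 5.48 and 5.29 on dis3-E729K replicates 1 and 2, against 5.67 and 11.19 on wild type replicates 1 and 2. The 3 low values lay just above the 99th percentile of the probe sets for another yeast species, which was 5.16, 5.10 and 5.07 on those arrays. LEU2, a gene deleted in BY4741, read 4.26 to 4.58 on the 4 arrays. On wild type replicate 2 YOR387C was 46.2-fold higher than on wild type replicate 1, a log2 difference of 5.53. The log2 difference dis3-E729K minus wild type was -3.04 over all arrays, -0.19 for the replicate 1 arrays and -5.90 for the replicate 2 arrays.

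The other 9 members, leaving aside YOR387C, which was chosen for it, also read higher on wild type replicate 2, most of them by less. Wild type replicate 2 was above wild type replicate 1 for 9 of 9, against 59.2% of all genes, by 0.26 for ZRC1 up to 2.47 for ZPS1, with a median of 0.53, beside 0.04 over all genes. The corresponding difference between the dis3-E729K arrays had a median of -0.07 over the 9, beside -0.04 over all genes. It was above 0 for 4 of the 9, against 2462 of the 5449 genes. For 8 of 9 wild type replicate 2 was the highest of the 4 arrays, which held for 38.1% of all genes; IZH2, at 10.88 there and 10.97 on dis3-E729K replicate 1, was the exception. ZRT2 exceeded the next array by only 0.01. The excess over the highest of the other 3 arrays was at least 1 log2 unit for ZPS1 (2.19) and ADH4 (1.62), 2 of the 9, a size reached by 29 genes in all, 0.532% of those measured; YOR387C had 5.53. Next came ZRT1 at 0.65, IZH1 at 0.55, ZAP1 at 0.53 and ZRT3 at 0.43. These are differences on 1 array with no replicate, so no test was made, and the part of the other differences of that array, such as MET17, was not tested.

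**Figure D3:**
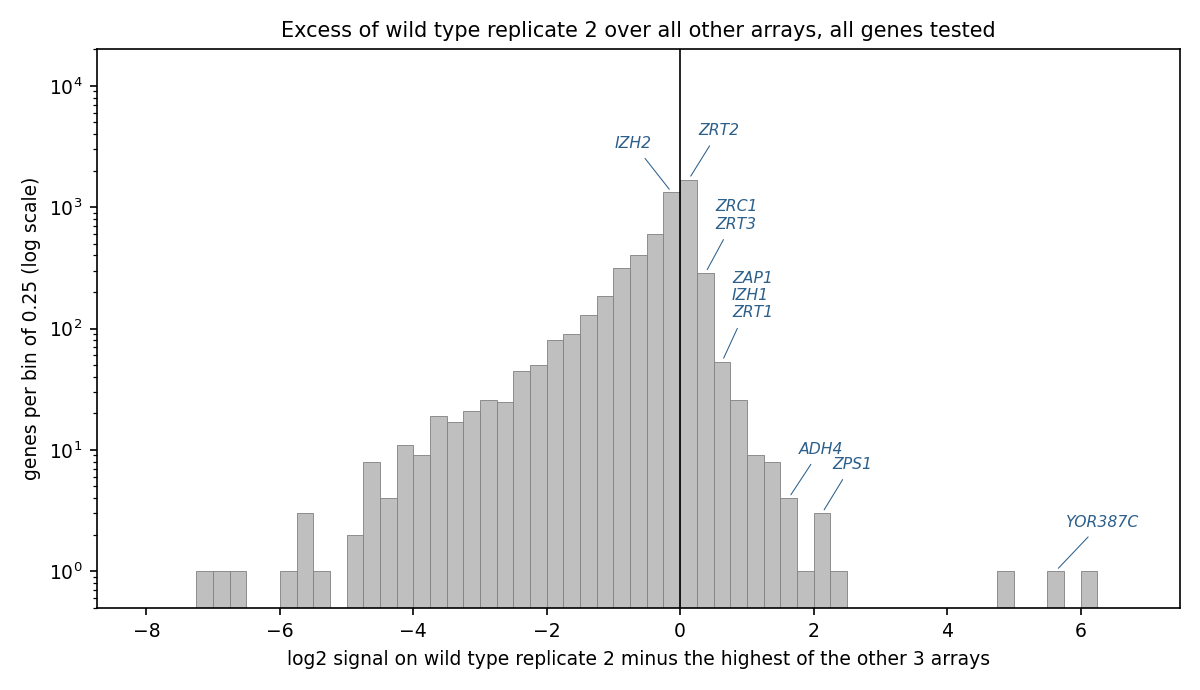
Number of genes (log scale) by the log2 signal on wild type replicate 2 minus the highest of the other 3 arrays, in bins of 0.25 over the 5449 genes; labels name the bins that hold the 10 zinc-responsive genes. YOR387C, ZPS1 and ADH4 lie in the sparse right tail, at 1.62 and above, and IZH2 alone lies below 0.

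By this measure, taken over the 4 arrays, the genes most like YOR387C were MET17, VEL1 (4.90), the alpha-factor gene MF(ALPHA)2 (2.35), the aquaporin gene AQY2 (2.13) and RPS9A (2.02), which encodes a protein of the small ribosomal subunit. MET17 lay below the 95th percentile of other-species probe sets on the other 3 arrays, so its excess has only a bound, at least 5.41 against that percentile. ZPS1 ranked 5th of 5449 and ADH4 10th. Genes outside the lists used here were also in this range, such as PHO84 at 1.66, ahead of ADH4, and FET3 at 1.38. VEL1 encodes a protein closely related to that of YOR387C and, like it, is known to be induced on zinc depletion. VEL1 read 5.33 and 4.83 on dis3-E729K replicates 1 and 2, against 5.55 and 10.45 on wild type replicates 1 and 2. Its low values lay near the 99th percentile of other-species probe sets. That percentile was 5.16 and 5.10 on dis3-E729K replicates 1 and 2 and 5.07 on wild type replicate 1. The dis3-E729K replicate 2 value was below it. The probe sets of VEL1 and YOR387C are annotated to 1 gene each, but how far either also detects the other's RNA was not tested. MF(ALPHA)2 differs from the zinc genes in that it was also high on the other array with the alpha-cell pattern, at 10.57 on dis3-E729K replicate 2.

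VEL1, MNT2, ADH4 and ZRT1 are neighbours in that order in the RefSeq annotation of assembly R64, and all are known Zap1 targets. On wild type replicate 2 relative to wild type replicate 1 they differed by 4.90, 0.21, 1.70 and 0.87 log2 units, so MNT2, a mannosyltransferase gene, had the smallest difference of the 4 although it lies between VEL1 and ADH4. The adjoining FZF1 gene, next to ZRT1, differed by 0.03. The genes on either side of YOR387C did not share its pattern: PHR1, the photolyase gene, differed by 0.47 and FDH1, a formate dehydrogenase gene, by -0.67. Some neighbours of other genes did differ. HPF1, next to ZPS1, differed by 1.68, with an excess of 0.60. YGL258W-A, next to VEL1, differed by 1.24, although both dis3-E729K arrays read higher than wild type replicate 2 there. It read 3.63 on wild type replicate 1, below the 95th percentile of other-species probe sets on that array (4.14). On wild type replicate 2 it read 4.87, below the 99th percentile there (5.09). These neighbours were chosen after the values of ADH4, VEL1 and YOR387C were seen.

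Beyond the members, 20 further genes reported as Zap1 targets were measured. In limma's test 1 rose and 2 fell, 5% and 10% of the list, against 7.71% and 8.15% of all genes. Before adjustment, at a p under 0.05, 3 were higher and 5 lower, against 18.1% and 22.6% of all genes, which are 986 and 1231 genes. The log2 difference had a median of 0.08, beside -0.07 over all genes. ATG41, an autophagy gene also known as ICY2, rose: it read 10.76 and 10.93 in dis3-E729K, against 8.80 and 8.87 in wild type (2.01 ± 0.13, SE, adjusted p = 0.0335). MCD4, which acts in the synthesis of glycosylphosphatidylinositol anchors, fell, with 9.83 and 9.28 in dis3-E729K against 11.12 and 10.73 in wild type (-1.37 ± 0.26, adjusted p = 0.0445). RAD27, the flap endonuclease of DNA replication, also fell, at 10.04 and 9.82 in dis3-E729K against 10.91 and 10.82 in wild type (-0.94 ± 0.14, adjusted p = 0.0366). These 3 genes did not share the excess of wild type replicate 2, which lay below the highest other array by 2.06 for ATG41, 0.39 for MCD4 and 0.09 for RAD27. With the replicate number as a block RAD27 was not called (adjusted p = 0.0611), and ATG41 and MCD4 were. Without wild type replicate 2 the log2 differences were 2.04 for ATG41, -1.56 for MCD4 and -0.98 for RAD27, each at least as large as over all arrays. All 3 calls were lost there, in a fit that leaves 1 wild-type array and called few genes of any kind. They were also lost without dis3-E729K replicate 2, where the log2 differences were 1.92 for ATG41, -1.09 for MCD4 and -0.83 for RAD27. URA10 and YJL132W were called higher only without dis3-E729K replicate 1, and VEL1 lower only without wild type replicate 1. URA10 read 9.09 and 10.02 in dis3-E729K, against 8.65 and 8.59 in wild type, and YJL132W 8.31 and 9.35 against 8.39 and 8.37. VEL1 was high on wild type replicate 2 alone. With 1 array left in a group, such calls restate its height and are no separate evidence. ATG41 stayed called in both fits, RAD27 in the first alone and MCD4 in neither.

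Wild type replicate 2 was the highest array for 7 of these 20 genes, 35%, close to the share over all genes, and exceeded the others by at least 1 log2 unit for VEL1 alone. FET4, a low-affinity iron transporter that also carries zinc, read 9.99 and 10.09 in dis3-E729K, against 9.78 and 10.64 in wild type. IZH4, a relative of IZH1, read 9.42 and 8.49 in dis3-E729K, against 7.79 and 9.38 in wild type. The low array for IZH4 was thus wild type replicate 1, and its pattern differed from that of ZPS1. The last member of that family, IZH3, read 10.90 and 10.97 in dis3-E729K, against 10.74 and 11.20 in wild type. None of the 3 passed the test (adjusted p = 0.717 for FET4, 0.692 for IZH4 and 0.894 for IZH3).

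**Figure D4:**
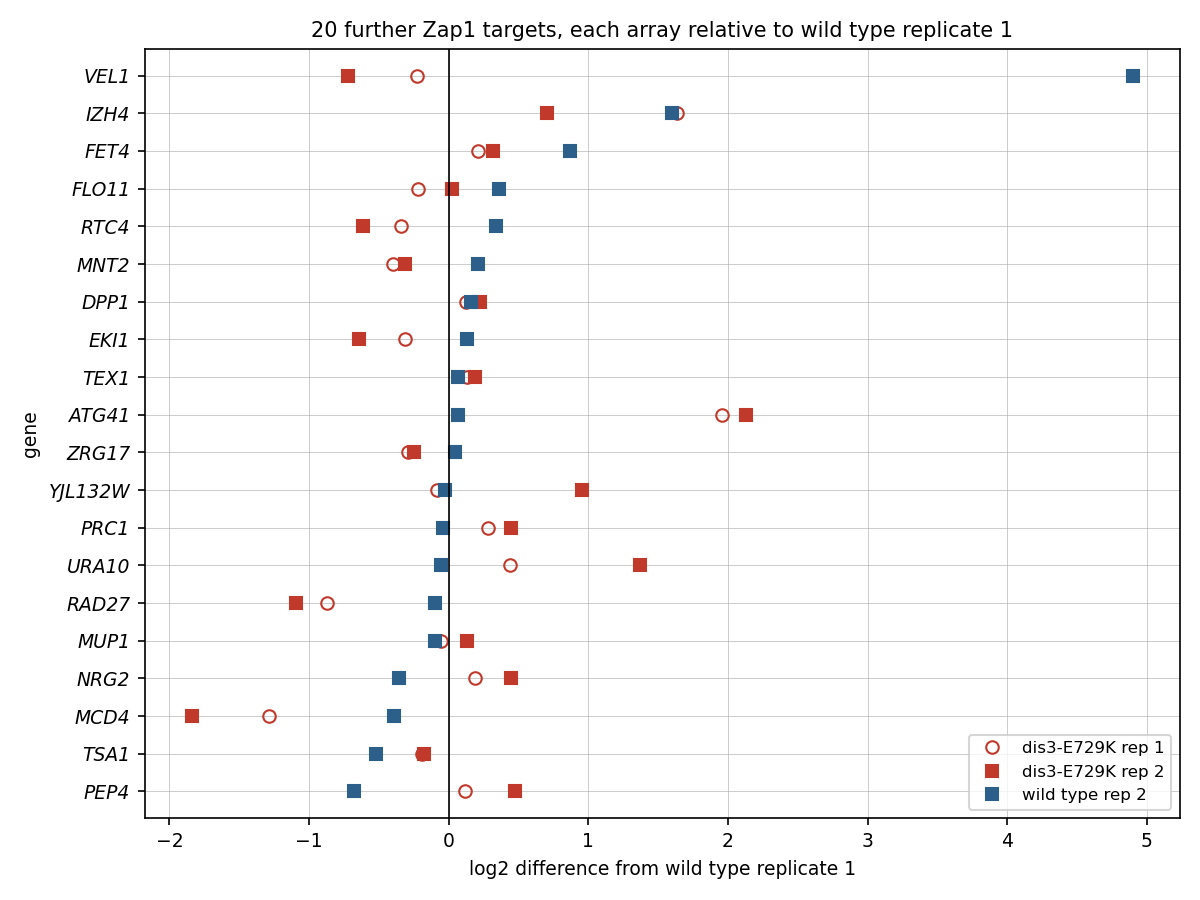
Log2 difference of dis3-E729K replicate 1 (open circles), dis3-E729K replicate 2 (red squares) and wild type replicate 2 (blue squares) from wild type replicate 1 for the 20 further Zap1 targets, ordered by wild type replicate 2. VEL1 stands alone at 4.90 on wild type replicate 2, and ATG41 is high and MCD4 and RAD27 low on both dis3-E729K arrays.

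Other zinc transporters of inner membranes, outside the members, did not pass either. ZRG17 and MSC2, whose products together carry zinc into the endoplasmic reticulum, differed by -0.29 ± 0.12 (SE, adjusted p = 0.141) and -0.45 ± 0.12 (adjusted p = 0.0655). YKE4, another zinc transporter of that membrane, differed by 0.50 ± 0.14 (adjusted p = 0.0782) and COT1, a vacuolar importer related to ZRC1, by 0.55 ± 0.28 (adjusted p = 0.208). On both dis3-E729K arrays YKE4 and COT1 were above both wild-type arrays, and ZRG17 and MSC2 below. Over all genes 32.3% lay above and 41.8% below in this way, so such a separation was common. ADH1 and ADH3, zinc-dependent alcohol dehydrogenases that Zap1 represses, differed by 0.16 ± 0.12 (adjusted p = 0.342) and 0.26 ± 0.13 (adjusted p = 0.206). For both genes each dis3-E729K array read above each wild-type array, which held for 32.3% of all genes. On wild type replicate 2, where ADH4 was high, ADH1 read 14.10 and ADH3 12.92, the lowest of the 4 arrays for each. The share of all genes lowest on that array was not counted, and repression by Zap1 was not tested. The step from wild type replicate 1 was small, at -0.02 for ADH1 and -0.18 for ADH3.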

How the data were processed

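Transcript levels were measured in 4 yeast cultures on 1-colour Affymetrix arrays. The authors deposited log2 intensities, with 1 value for each probe set on each array. The submitters' processing notes name RMA, Transcriptome Analysis Console and Affymetrix Expression Console, without versions. RMA gives all arrays one distribution, so a global shift cannot be seen. The genome build is not given in the sources used here.

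Of 10928 probe sets, 5498 were tied to 1 gene through the platform annotation and RefSeq (assembly R64); of 47 genes with several, the brightest by the mean of the 4 arrays was kept, leaving 5449. No filter on dim genes was applied. The genotype comparison used limma 3.58.1 (R 4.3.3; lmFit and eBayes, 2 residual degrees of freedom), with Benjamini-Hochberg adjustment over all 5449 genes, a threshold of 0.05 and differences as dis3-E729K minus wild type. The fit was tested on simulated data. The excess of wild type replicate 2 is its value minus the highest of the other 3 arrays.

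Members and lists were chosen with earlier results of these data known. By rule the text names the members, listed genes past the threshold, all genes of the short transporter, dehydrogenase and family lists, and the 5 other genes with the largest excess. LEU2, HIS3, LYS2, URA3, FZF1, PHR1, FDH1, HPF1, YGL258W-A, MNT2, URA10, YJL132W, PHO84 and FET3 were named after their values were seen. Of the marker genes, HMLALPHA2 was not measured. The alternatives tried were an intensity trend, a replicate block, robust eBayes, median centring, quantile normalization, dim genes or cross-hybridising probe sets left out, averaged probe sets, a threshold of 0.10 and each array left out.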

Additional observations from a re-analysis of the deposited data

How the results depend on the processing

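Over all genes 420 were called higher and 444 lower. With each array left out in turn these counts ranged from 0 to 316 and from 0 to 351, and the members called lower from 0 to 4, beside 2 over all arrays. Members called higher were 0 in limma's test under every setting run, with 0 higher at an unadjusted p under 0.05 as well. The further Zap1 targets called higher ranged from 0 to 3 and those called lower from 0 to 1 with an array left out. Without dis3-E729K replicate 2, where 0 genes passed limma's test, 694 were higher and 868 lower before adjustment, at a p under 0.05. A replicate block in the fit gave 199 genes higher and 144 lower; 1 member, ZAP1, was called lower (adjusted p = 0.0486) and IZH1 was not (adjusted p = 0.0663), and of the further targets 1 was called lower, MCD4. Labels say nothing of a shared culture or day behind a number, and the deviations of same-numbered arrays from their group means correlated at r = 0.08 over genes. At a threshold of 0.10, 883 genes were higher and 1069 lower. Under quantile normalization over the genes tested 1 member, ZAP1, was called lower, and IZH1 had an adjusted p of 0.0515. Genes that did not pass changed sign with an array left out: the log2 difference of IZH2 ranged from -0.38 without dis3-E729K replicate 1 to 0.24 without dis3-E729K replicate 2, and was 0.08 without wild type replicate 2. That of ZRT2 ranged from -0.040 without wild type replicate 1 to 0.43 without wild type replicate 2. ZRT1 and ZPS1 had -0.83 and -2.35 without wild type replicate 1, and 0.035 and 0.12 without wild type replicate 2. The cause of these shifts, beyond fewer arrays, was not tested. The log2 difference of YOR387C was -0.28 without wild type replicate 2 and -5.81 without wild type replicate 1. Both calls, of ZAP1 and IZH1, held with an intensity trend, robust eBayes and median centring, and without wild type replicate 1. They were lost without each of the other arrays. The settings on averaged, cross-hybridising or dim probe sets could not change the log2 differences of the members, only the set of genes fitted beside them. A threshold of 0.10 could not undo a call made at 0.05. The excess values of the members kept their direction under median centring, where that of ZRT2 was only 9e-05. Averaging probe sets could not change them, since each member had 1 probe set.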
